A study of Rattus norvegicus with 16 samples.

Results

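Diesel exhaust (DE) was set against clean air in the left ventricle of Wistar Kyoto (WKY) rats, the normotensive strain that serves as the control of the spontaneously hypertensive (SH) rat. The samples were taken by their titles, 4 labeled as WKY rats exposed to diesel (WKY-DE) and 4 as WKY rats exposed to air (WKY-air), 8 of the 16 arrays of the series. All were male rats, with an age of 12–14 weeks in the labels. By the published methods this was the age at purchase, before acclimatization and the 4 weeks of exposure. WKY-DE rats breathed the whole exhaust of a Deutz engine, diluted to 2.0 mg/m3 of particles, in whole-body chambers on 5 days/week for 4 weeks, and WKY-air rats sat in a chamber supplied with filtered room air. The daily exposure was 6 hr by the sample labels and 4 hr by the published methods. Necropsy followed 1 day after the last exposure, so effects of the last session and of the whole month cannot be told apart. Portions of left ventricle with septum were frozen after the right ventricle had been discarded. RNA of each heart was hybridized to an Affymetrix Rat 230A array, on which several short probes (a probe set) report each transcript as 1 signal in arbitrary units. The other 8 arrays, 4 of SH-air and 4 of SH-DE under the same regime, entered the statistical model and the comparison of strains.

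Inhaled DE is a mixture of soot particles carrying polycyclic aromatic hydrocarbons and of nitrogen oxides, carbon monoxide and other gases. Particles lodge in the lung, and effects on the heart are thought to travel through inflammatory mediators, absorbed components, or the autonomic nerves. The ventricle holds cardiomyocytes, which supply most of its RNA, together with fibroblasts that lay down collagen, capillary endothelium, smooth muscle, and resident leukocytes. In a sample of whole tissue, fewer cells of a type and less RNA per cell of that type cannot be told apart.

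Ventricular markers were bright on all WKY arrays: the summed signal of 14 ventricular cardiomyocyte genes ran from 359380 to 463870 in WKY-air and from 270470 to 366740 in WKY-DE. Markers of atrial cardiomyocytes were present as well and differed widely between hearts of the same group. Sln, which encodes sarcolipin, a regulator of the calcium pump in atria, had signals of 8873, 1471, 2968 and 2225 in WKY-air and 139.9, 76.6, 2748 and 801 in WKY-DE. Myl4, the atrial essential light chain of myosin, gave 8624, 1654, 3941 and 3504 in WKY-air and 392, 208, 4489 and 989.8 in WKY-DE. Among WKY-air hearts replicate 1 was the highest for both genes, and among WKY-DE hearts replicate 3 was. Neither gene passed the test (Sln limma log2 fold change −2.85 ± 1.25 SE and adjusted p = 0.213, and Myl4 limma log2 fold change −2.23 ± 0.95 SE and adjusted p = 0.203). The 10 atrial markers summed to 34742–98435 in WKY-air and 14312–44166 in WKY-DE. None of the 10 was called by limma, where 1.98% of all genes were in either direction. Of the 10, 7 had an unadjusted p below 0.05, beside 2609 of 12783 probe sets with 1 gene. Results on genes that could follow this difference are given below with and without the 2 hearts. Without them the atrial sums were 38747, 47815 and 34742 in WKY-air and 24549, 14312 and 17079 in WKY-DE. Leaving out the 2 hearts thus removed the overlap and not the difference in atrial markers.

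The spread of signals across the whole array also differed between the groups. Each array had been scaled to the same trimmed mean, which was 500.2 on all 16. The median signal of an array was nevertheless 187.7 ± 6.77 (SD, n = 4) in WKY-air and 211.3 ± 3.22 in WKY-DE, with no overlap (exact two-sided permutation test, p = 0.0286, the smallest that 4 against 4 can give). The 99th percentile went the other way, 12210 in WKY-air against 10620 in WKY-DE (exact permutation test, p = 0.0286). When probe sets were ordered by mean signal over the 16 arrays and split into 10 equal parts, the median log2 fold change was 0.27 in the third part from the bottom and −0.10 in the brightest. Quantile normalization, which forces all arrays to one distribution of signals, brought the medians of all 10 parts to between −0.057 and 0.052. In the SH strain the medians of the same 10 parts lay between −0.054 and 0.024 under the deposited scaling. Dim transcripts thus read higher and the brightest lower in WKY-DE before any single gene was considered, and the origin of the shift was not tested. Calls below are given for both scalings.

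**Figure D1:**
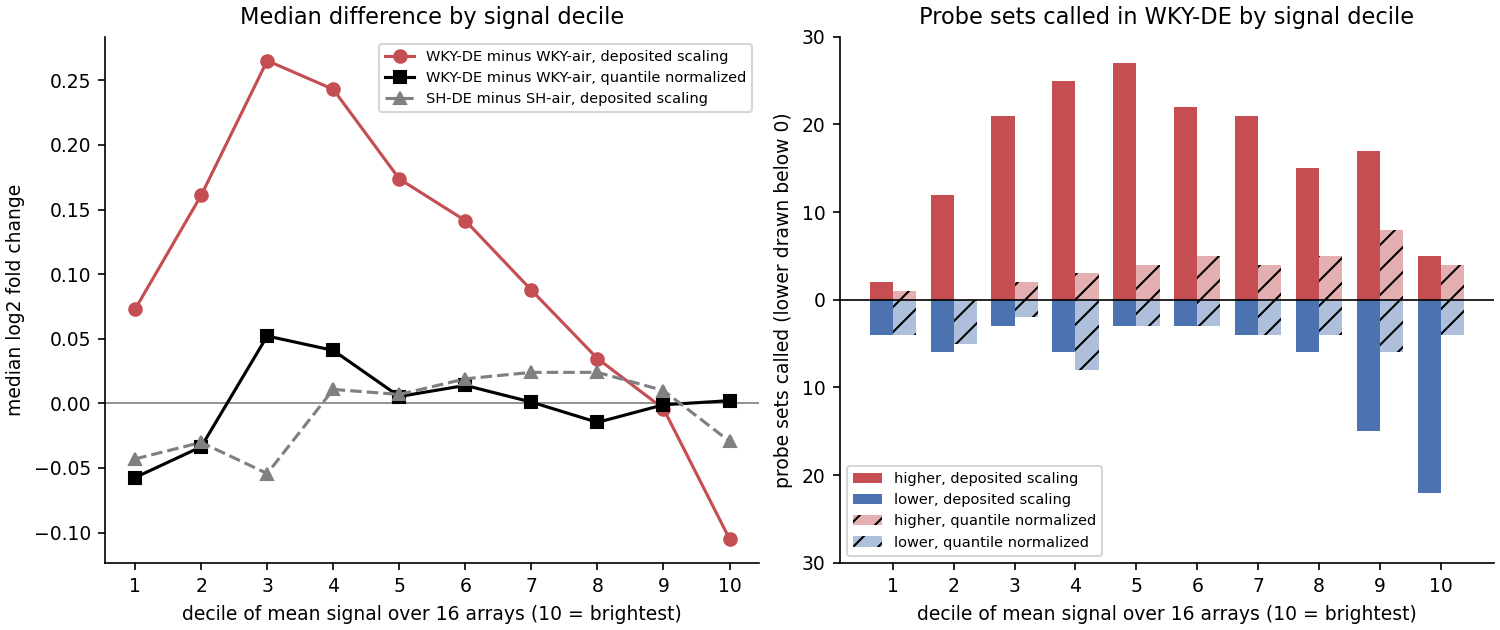
Left, median log2 fold change (y axis) of probe sets in each of 10 parts ordered by mean signal over the 16 arrays (x axis), for WKY under both scalings and for SH. Right, numbers of probe sets called higher (above 0) and lower (below 0) in WKY-DE in each part. Under the deposited scaling the median runs from 0.27 in decile 3 to −0.10 in decile 10, whereas the quantile-normalized values stay near 0. In decile 10, 22 probe sets were called lower under the deposited scaling and 4 after quantile normalization.

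In total, 239 of 12783 probe sets assigned to 1 gene (1.87%) were called different between WKY-DE and WKY-air under the deposited scaling, 167 higher (1.31%) and 72 lower (0.563%). They stood for 236 genes. A call was a Benjamini-Hochberg adjusted p below 0.05 together with an unadjusted p below 0.01, from limma on log2 signals after an offset of 16.1 was added. The offset damps the fold change of transcripts near or below it. After quantile normalization 79 were called (0.618%), 36 higher (0.282%) and 43 lower (0.336%), and 74 of them were among the 239, 35 higher and 39 lower. The share of higher calls therefore depended on the scaling. Of the 167 higher calls 164 had signals in the 4 WKY-DE arrays that did not overlap those in the 4 WKY-air arrays, as did 69 of the 72 lower calls, where 12.7% of all probe sets with 1 gene showed no overlap. The higher calls were dimmer, with a median mean signal of 208.1 against 873.5 for the lower calls and 197.3 for all probe sets. The count leaned on single hearts: leaving out replicate 1, 2 or 4 of WKY-air gave 40, 99 or 70 calls, leaving out replicates 1 to 4 of WKY-DE in turn gave 62, 35, 81 and 76, and leaving out replicate 4 of SH-air gave 154. With both WKY-air replicate 1 and WKY-DE replicate 3 left out, limma called 0 (2126 probe sets had an unadjusted p below 0.05, smallest adjusted p = 0.0526). In that last fit all 239 kept their direction, with a median size of 0.877 on the log2 scale against 0.857 with all arrays. These probe sets were selected on the same arrays, nearly all without overlap between the groups, so their direction and size are no independent support. Quantile normalization of the arrays kept in that fit gave 10 calls, all lower.

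The 10 largest increases among called genes with separate groups were in transcripts that were dim in air. Lack of overlap was a condition for these 10 genes and for the 10 largest decreases below, so it lends them no added support. Il12b, the p40 subunit of interleukin-12, had signals of 31.5, 26.1, 9.47 and 58.6 in WKY-air and 179, 92.1, 126 and 221 in WKY-DE (limma log2 fold change 1.89 ± 0.35 SE and adjusted p = 0.0221). Its increase was 1.68 with an adjusted p of 0.0505 after quantile normalization, just short of a call. Dusp4, a phosphatase that inactivates MAP kinases in the nucleus, had signals of 5.28, 46.9, 26.6 and 76.0 in WKY-air and 116, 172, 167 and 132 in WKY-DE (limma log2 fold change 1.75 ± 0.38 SE and adjusted p = 0.0364), and was not called after quantile normalization (adjusted p = 0.0762). Every DE heart exceeded every air heart for both genes, although the air signals varied more than 5-fold among themselves.

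Slc22a8 was the brightest of the 10. It encodes an organic anion transporter best known from kidney and choroid plexus, and its signals were 49.97, 201, 120.4 and 164 in WKY-air and 360.3, 459, 354 and 464 in WKY-DE (limma log2 fold change 1.62 ± 0.28 SE and adjusted p = 0.0204). The call was kept after quantile normalization (log2 fold change 1.52, adjusted p = 0.0353). The same held for Slc9a5, a plasma membrane sodium-proton exchanger, with 40.4, 18.2, 10.1 and 20.4 in WKY-air and 138, 88.7, 103 and 97.97 in WKY-DE (limma log2 fold change 1.72 ± 0.29 SE and adjusted p = 0.0191), and for Camk4, a calcium/calmodulin-dependent kinase that acts on transcription factors, with 21.1, 29.9, 26.3 and 16.1 in WKY-air and 90.8, 143, 69.2 and 159.7 in WKY-DE (limma log2 fold change 1.69 ± 0.29 SE and adjusted p = 0.0203). For these 3 genes no DE heart reached down to the air hearts, as their selection required.

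Ahr encodes the aryl hydrocarbon receptor, the transcription factor that binds polycyclic aromatic hydrocarbons. Its signals were 112, 14.3, 86.3 and 103 in WKY-air and 287, 203, 216 and 287 in WKY-DE (limma log2 fold change 1.65 ± 0.39 SE and adjusted p = 0.0474). WKY-air replicate 2 lay far below the other air hearts, and the result was 1.49 with an adjusted p of 0.0601 after quantile normalization. A second probe set of Ahr averaged 90.91 in WKY-air and 173.7 in WKY-DE (log2 fold change 0.93). It was not called under either scaling (limma adjusted p = 0.185, and 0.359 after quantile normalization). The other 4 of the 10 were Slc10a1, the sodium-taurocholate transporter of hepatocytes, the neuronal adhesion molecule Cntn5, the microtubule-associated kinase Dclk1, and Pianp. Their signals in air ran from 5.05 to 21.2 and in DE from 32.3 to 108, with log2 fold changes of 1.68, 1.62, 1.61 and 1.60. After quantile normalization their adjusted p-values were between 0.0528 and 0.0573, so none of the 4 was called under both scalings. The 2 brighter probe sets of Dclk1 had log2 fold changes of 0.17 (adjusted p = 0.839) and 0.19 (0.673).

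Among the genes called lower Col5a3, which encodes the α3 chain of type V collagen, had the largest fall. Its signals were 125, 111, 118 and 222 in WKY-air and 50.7, 18.5, 18.6 and 19.7 in WKY-DE (limma log2 fold change −1.91 ± 0.26 SE and adjusted p = 0.00989). WKY-DE replicate 1 was the highest DE heart and still lay below all air hearts, and the fall was −2.10 with an adjusted p of 0.00388 after quantile normalization. Il4r, the α chain shared by the interleukin-4 and interleukin-13 receptors, had 370.5, 262, 298 and 239 in WKY-air and 62.8, 162, 35.7 and 92.1 in WKY-DE (limma log2 fold change −1.69 ± 0.29 SE and adjusted p = 0.0203), also called after quantile normalization. Arhgef40 had 239.9, 124, 157 and 116 in WKY-air and 42.7, 28.05, 24.3 and 68.8 in WKY-DE (limma log2 fold change −1.63 ± 0.25 SE and adjusted p = 0.0155), called under both scalings.

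Akt1s1, a substrate of Akt that restrains mTOR complex 1, had signals of 135, 161, 147 and 152 in WKY-air and 23.2, 54.9, 34.9 and 49.6 in WKY-DE (limma log2 fold change −1.57 ± 0.34 SE and adjusted p = 0.0369). The air values of Akt1s1 were tightly grouped, yet a brighter probe set of the gene averaged 906.8 in air and 822.0 in DE (log2 fold change −0.15, limma adjusted p = 0.679). Lsr, a receptor for triglyceride-rich lipoproteins and a component of tricellular junctions, had 70.8, 82.04, 75.6 and 92.1 in WKY-air and 31.2, 19.5, 15.0 and 15.7 in WKY-DE (limma log2 fold change −1.42 ± 0.28 SE and adjusted p = 0.0291). C2h1orf52 had 474, 277, 413 and 232 in WKY-air and 141, 70.3, 115 and 45.5 in WKY-DE (limma log2 fold change −1.78 ± 0.27 SE and adjusted p = 0.0155). Both were called after quantile normalization, and in both the highest DE heart was below the lowest air heart.

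Of 2 transcription regulators among the largest decreases, 1 held under both scalings. Irx4, a homeobox factor of the ventricular chamber, had 66.3, 44.2, 90.9 and 39.9 in WKY-air and 15.7, 6.80, 11.96 and 11.05 in WKY-DE (limma log2 fold change −1.44 ± 0.28 SE and adjusted p = 0.0291), and it was −1.59 with an adjusted p of 0.0162 after quantile normalization. All 4 DE signals of Irx4 lay below the offset and all 4 air signals above it. Zfpm1, the GATA cofactor also called Fog1, had 136, 83.2, 31.8 and 86.4 in WKY-air and 13.5, 20.9, 7.61 and 15.2 in WKY-DE (limma log2 fold change −1.63 ± 0.39 SE and adjusted p = 0.0488) and an adjusted p of 0.0571 after quantile normalization. Ptms, which encodes the acidic nuclear protein parathymosin, was the brightest of these 10 genes, at 1049, 1966, 1268 and 2592 in WKY-air and 530.1, 676, 467 and 709.8 in WKY-DE (limma log2 fold change −1.43 ± 0.33 SE and adjusted p = 0.0454), with an adjusted p of 0.0522 after quantile normalization. The Wnt receptor Fzd2 completed the 10 and is described with the Wnt genes.

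**Figure D2:**
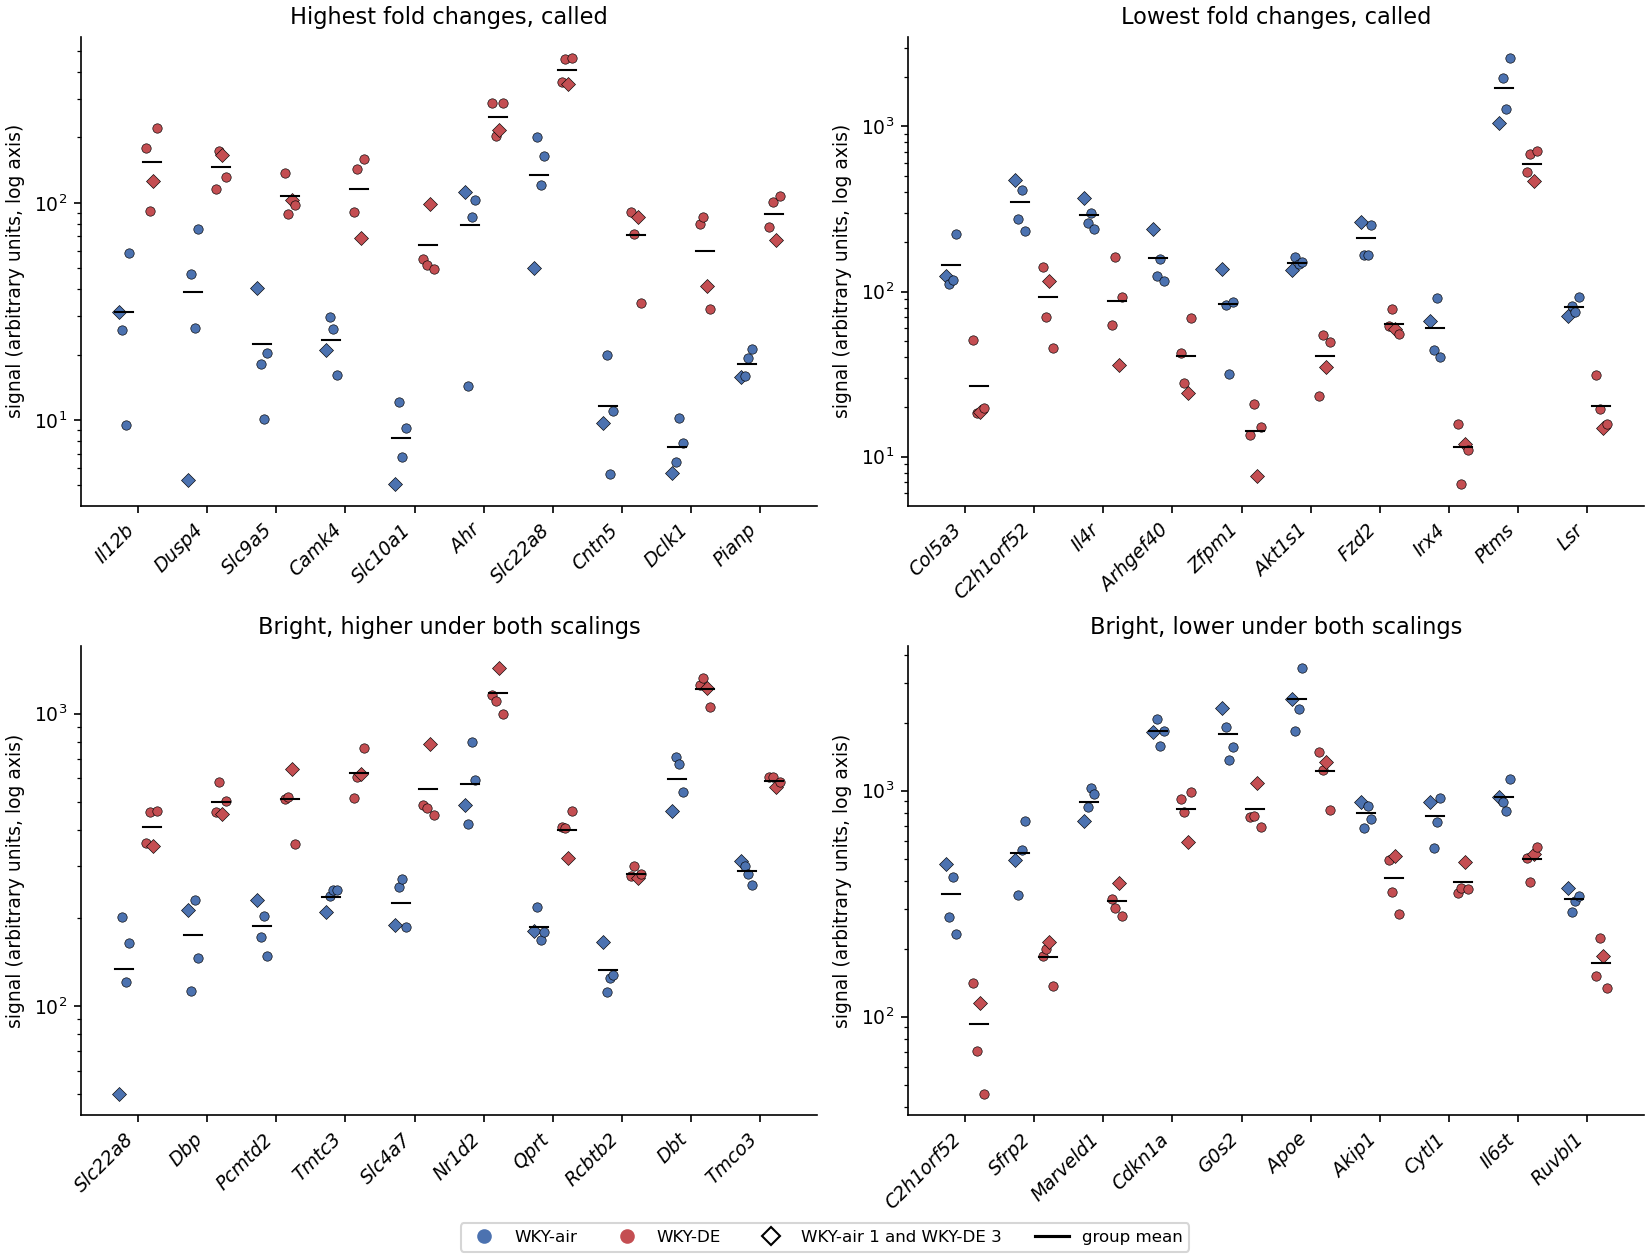
Signal per heart (y axis, arbitrary units, log scale) for the genes with the largest fold changes among those called (top) and for bright genes called under both scalings (bottom), in WKY-air and WKY-DE. Points are single arrays, lines are group means of 4, and diamonds mark WKY-air 1 and WKY-DE 3, the hearts with the highest atrial markers of their groups. The groups do not overlap for any gene shown, which in the top row was a condition of selection. For Tmco3 the air hearts lie at 259–314 and the DE hearts at 559–609.

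Calls that held under both scalings in transcripts brighter than the median numbered 26 higher and 22 lower. Dbp, a clock output factor, led the increases with Slc22a8 and is described with the clock genes. Dbt, the transacylase core of the branched-chain keto acid dehydrogenase, rose from 464, 709, 671 and 538 in WKY-air to 1251, 1322, 1224 and 1057 in WKY-DE (limma log2 fold change 1.02 ± 0.17 SE and adjusted p = 0.0182). Slc4a7, an electroneutral sodium-bicarbonate cotransporter that takes part in acid extrusion from cardiomyocytes, had 189, 256, 272 and 187 in WKY-air and 486, 476, 789 and 451 in WKY-DE (limma log2 fold change 1.21 ± 0.21 SE and adjusted p = 0.0204), and WKY-DE replicate 3 was its highest heart. Qprt, the enzyme that turns quinolinate into a precursor of NAD, had 181, 218, 169 and 179.7 in WKY-air and 409, 407, 320.4 and 463 in WKY-DE (limma log2 fold change 1.03 ± 0.17 SE and adjusted p = 0.0191). In each of these the lowest DE heart exceeded the highest air heart by more than the range of the air hearts.

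Tmtc3, an O-mannosyltransferase of the endoplasmic reticulum, had 210.3, 238, 248 and 249 in WKY-air and 512, 606, 622 and 760.5 in WKY-DE (limma log2 fold change 1.33 ± 0.26 SE and adjusted p = 0.0296), and after quantile normalization its adjusted p was 0.0494. Tmco3, a predicted membrane antiporter, was the tightest of the set, at 314, 301, 284 and 259 in WKY-air and 609, 608, 559 and 585 in WKY-DE (limma log2 fold change 0.99 ± 0.14 SE and adjusted p = 0.0146). Rcbtb2 rose by 1.02 and Pcmtd2 by 1.35 on the log2 scale, with limma adjusted p-values of 0.0221 and 0.0263. The brighter probe set of Pcmtd2 averaged 1765 in air and 1899 in DE (log2 fold change 0.11, adjusted p = 0.698), so the 2 probe sets of this gene did not show the same size of change.

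The decreases of this kind included regulators of growth and of lipid handling. Cdkn1a, the cyclin-dependent kinase inhibitor p21, had signals of 1817, 2080, 1580 and 1840 in WKY-air and 922, 806, 590.5 and 988 in WKY-DE (limma log2 fold change −1.15 ± 0.17 SE and adjusted p = 0.0155). G0s2, an inhibitor of adipose triglyceride lipase, had 2310, 1904, 1364 and 1561 in WKY-air and 761, 774, 1079 and 689.5 in WKY-DE (limma log2 fold change −1.09 ± 0.19 SE and adjusted p = 0.0206). Both were called after quantile normalization with the same log2 fold changes to 2 decimals (−1.15 and −1.09). A dimmer probe set of Cdkn1a averaged 465.7 in air and 202.6 in DE (log2 fold change −1.19), although its adjusted p was 0.119. In the list of p53 targets and growth arrest genes these were the 2 called of 24 measured, both lower under both scalings (all genes lower, 0.586%, and 0.327% after quantile normalization), whereas the list's median was 0.081 (all genes, 0.081) and 16 of 24 members were nominally higher. Ccnd3, the cyclin D3 of the same list, had 1124, 1098, 1107 and 1089 in WKY-air and 759.7, 899, 763 and 679 in WKY-DE and missed the call (limma log2 fold change −0.51 ± 0.13 SE and adjusted p = 0.0522).

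Apoe, the apolipoprotein that clears remnant lipoproteins, had 2531, 1841, 2287 and 3499 in WKY-air and 1488, 1238, 1339 and 823 in WKY-DE (limma log2 fold change −1.04 ± 0.21 SE and adjusted p = 0.0296), with an adjusted p of 0.0464 after quantile normalization. Marveld1 had 736, 848, 1029 and 963 in WKY-air and 332, 302, 389.7 and 279.6 in WKY-DE (limma log2 fold change −1.41 ± 0.22 SE and adjusted p = 0.0155), but its second probe set averaged 320.3 in air and 415.5 in DE (log2 fold change 0.36, adjusted p = 0.418). Il6st, the signal-transducing receptor subunit gp130 of the interleukin-6 family, had 934, 889, 812 and 1122 in WKY-air and 502, 393, 524 and 565 in WKY-DE by the called probe set (limma log2 fold change −0.90 ± 0.17 SE and adjusted p = 0.0221). The 2 brighter probe sets of Il6st averaged 1911 and 1845 in air and 2006 and 1970 in DE, with log2 fold changes of 0.065 and 0.095. The decrease of Il6st was thus read by 1 of its 3 probe sets.

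Akip1, a protein that binds protein kinase A, is read by 7 probe sets, of which 2 were called lower. The one with the larger fall had 891, 681, 859 and 747 in WKY-air and 495, 356, 514 and 284 in WKY-DE (limma log2 fold change −0.95 ± 0.20 SE and adjusted p = 0.0333), and the other averaged 530.5 in air and 297.9 in DE (log2 fold change −0.82, adjusted p = 0.0488, and 0.0505 and no call after quantile normalization). Its brightest probe set averaged 981.0 and 708.7 (log2 fold change −0.47, adjusted p = 0.125). Ruvbl1, an ATPase of chromatin remodeling complexes, fell by 0.90 and Cytl1, a small secreted protein known from cartilage, by 0.93 on the log2 scale (adjusted p = 0.0215 and 0.0291).

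Across the array, 65 called genes had further probe sets, 89 in all. Of 60 that belonged to genes called higher, 48 were nominally higher too, with a median log2 fold change of 0.22 and 2 calls, where 60.6% of all probe sets were higher. Of 29 that belonged to genes called lower, 13 were nominally lower, with a median of 0.014 and 1 call, where 39.6% of all genes were lower. Restricted to probe sets above the median signal, 19 of 24 and 10 of 16 had the sign of the call. Calls in either direction were thus seldom repeated as calls by the other probe sets of the gene, and for decreases the sign often differed.

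The circadian clock supplied the list with the largest share of called genes among the 38 pathway lists. The lists were chosen with earlier results of these data known, so this rank is a description and no test. In the clock, Bmal1 and Clock drive genes through E-boxes, among them the Per and Cry repressors, the nuclear receptors Nr1d1 and Nr1d2, and the PAR-domain factors Dbp, Tef and Hlf, which act on D-boxes. The genes of the Dbp and Per phase peak together and opposite to Bmal1. Of 13 measured members of the Dbp and Per phase, 4 were called higher and none lower (all genes, 1.39% and 0.586%, together 1.98%). After quantile normalization 2 were called higher (all genes, 0.298% higher and 0.327% lower, together 0.624%). The median log2 fold change was 0.63, and 0.57 after quantile normalization, beside 0.081 and 0.0025 for all genes, and 11 of the 13 were higher under either scaling. None of the 3 measured genes of the Bmal1 phase was called under either scaling (all genes in either direction, 1.98% and 0.624%).

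Dbp had signals of 212, 112, 231 and 146 in WKY-air and 461, 583, 455 and 501 in WKY-DE (limma log2 fold change 1.47 ± 0.23 SE and adjusted p = 0.0177). Nr1d2, the repressor Rev-erb-β, had 486, 419, 800.4 and 594 in WKY-air and 1161, 1105, 1435 and 1000 in WKY-DE (limma log2 fold change 1.04 ± 0.19 SE and adjusted p = 0.0221). Both were called after quantile normalization, with log2 fold changes of 1.35 and 1.04, and a second probe set of Nr1d2 was also called higher (log2 fold change 0.73, adjusted p = 0.0333) under the deposited scaling and not after quantile normalization (adjusted p = 0.0571). DE hearts exceeded air hearts without exception for both genes.

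Per1 and Per3, paralogs of Per2, were the 2 members that read lower, and they are named for that reason. Per1 had 135, 57.7, 179.8 and 179 in WKY-air and 81.1, 50.1, 115 and 58.4 in WKY-DE, with overlap (limma log2 fold change −0.69 and adjusted p = 0.291). Per3 had 77.2, 2.36, 41.6 and 25.1 in WKY-air and 6.02, 4.25, 6.45 and 16.0 in WKY-DE, also with overlap and mostly near or below the offset (limma log2 fold change −0.91 and adjusted p = 0.193).

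Per2, a repressor of the Bmal1-Clock pair, had 259, 151, 134 and 178 in WKY-air and 371, 382, 242 and 346 in WKY-DE (limma log2 fold change 0.86 ± 0.20 SE and adjusted p = 0.0433). Here WKY-DE replicate 3 lay below WKY-air replicate 1, so the groups overlapped. Bhlhe41, the repressor Dec2, had 366, 332, 408 and 412 in WKY-air and 594, 649, 449 and 726 in WKY-DE (limma log2 fold change 0.63 ± 0.15 SE and adjusted p = 0.0481), without overlap. After quantile normalization neither was called, with adjusted p-values of 0.0892 and 0.0805. Bmal1 itself had 350.4, 413, 327 and 399 in WKY-air and 309, 228, 318 and 279 in WKY-DE and was not called (limma log2 fold change −0.38 ± 0.19 SE and adjusted p = 0.275), although every DE heart was below every air heart. In SH rats the log2 fold changes of DE against air were 0.46 for Dbp, 0.23 for Nr1d2, 0.27 for Per2, 0.035 for Bhlhe41 and −0.24 for Bmal1, none of them called. The strain by exposure interaction passed for none of the 5 genes (smallest limma adjusted p = 0.258, for Dbp). The 13 genes had a median log2 fold change of 0.27 in SH rats. Without WKY-air replicate 1 and WKY-DE replicate 3 the median of the 13 in WKY was 0.74 with no call left. The animals were kept on a fixed light-dark cycle by the published methods, the hour of necropsy of each heart is not given in the sources used here, and its part in these values was not tested.

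The bases before the start of the 4 called clock genes were searched for the elements named above, because these are the elements through which the clock acts. The RefSeq promoter table (GRCr8 build, Brown Norway rat) gives 1 window of 250 bases upstream of the start for each of the 4. The E-box was searched as CACGTG and the D-box as TTATGTAA, on both strands, and the 2 motifs do not overlap in letters here. An E-box stood in 5.59% and a D-box in 0.828% of 33469 windows. The window of Per2 held a D-box and that of Bhlhe41 an E-box, with the motif in capitals and 30 bases to each side:
Per2, chr9:99497148-99497215, minus strand: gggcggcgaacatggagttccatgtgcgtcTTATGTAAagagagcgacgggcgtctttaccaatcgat
Bhlhe41, chr4:180569368-180569433, minus strand: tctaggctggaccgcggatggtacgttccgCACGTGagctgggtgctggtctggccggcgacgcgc
The D-box of Per2 began 192 bases and the E-box of Bhlhe41 48 bases upstream of the start. The windows of Dbp and Nr1d2 held neither element, which says only that these letters are absent from 250 bases. An E-box also stood in the windows of Tef and Bhlhe40 and in 1 of 2 windows of Nr1d1, none of which was called. A match is a description of the sequence and was not measured as binding.

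**Figure D3:**
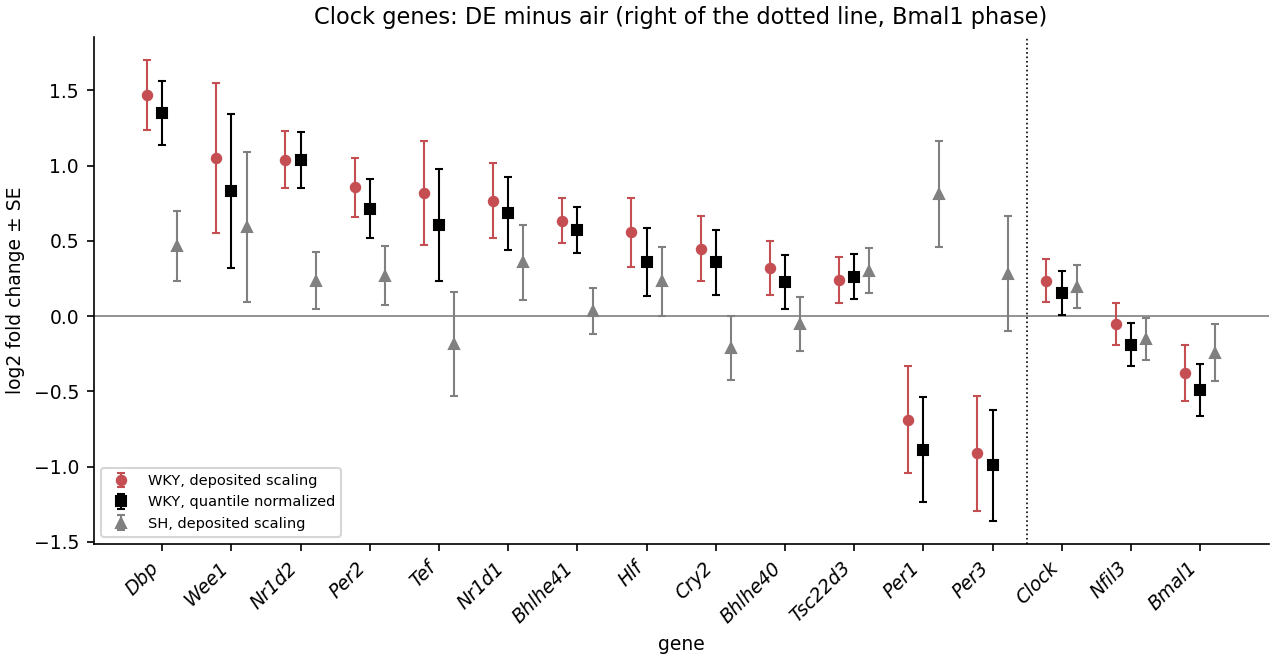
Log2 fold change of DE against air (y axis) with its standard error (bars) for each measured clock gene (x axis), in WKY under both scalings and in SH under the deposited scaling. Genes left of the dotted line are those of the Dbp and Per phase, of which 11 of 13 lie above 0 in WKY, and Clock, Nfil3 and Bmal1 stand to the right. Dbp is the highest, at 1.47 in WKY and 0.46 in SH.

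Many matrix genes read lower in WKY-DE, and few of them were called. Fibroblasts build the collagen network of the ventricle, and TGF-β and its downstream factor Ccn2 drive that program. Of 21 collagens measured 2 were called lower and none higher (all genes, 0.586% and 1.39%), and 16 were nominally lower, with a median log2 fold change of −0.20, and −0.31 after quantile normalization. Of 41 matrix glycoproteins and proteoglycans 2 were called lower under the deposited scaling (all genes, again 0.586%) and none after quantile normalization, with medians of −0.25 and −0.24. Of 14 fibroblast markers 12 were nominally lower and 1 was called lower, with medians of −0.44 and −0.41. Col5a3, described above, was the collagen called under both scalings.

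Col1a2, a chain of type I collagen, had signals of 5623, 3045, 4567 and 3547 in WKY-air and 2201, 1964, 2678 and 2250 in WKY-DE (limma log2 fold change −0.85 ± 0.21 SE and adjusted p = 0.0498). Its partner Col1a1 had 3278, 1644, 2383 and 2398 in WKY-air and 1305, 1380, 1460 and 1308 in WKY-DE and missed the call (limma log2 fold change −0.78 ± 0.23 SE and adjusted p = 0.0851), with no overlap of the groups. WKY-air replicate 1 was the highest heart and WKY-DE replicate 3 the highest DE heart for both chains, the same hearts that were highest in atrial markers. After quantile normalization the adjusted p-values were 0.0774 and 0.121. A second probe set of each was not called, with a log2 fold change of −0.36 (adjusted p = 0.159) for Col1a2 and of −0.29 (0.454) for Col1a1.

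Mfap4, a microfibril glycoprotein, had 2266, 2371, 1931 and 2544 in WKY-air and 1209, 1170, 1061 and 1077 in WKY-DE (limma log2 fold change −0.997 ± 0.22 SE and adjusted p = 0.0364), and in this gene the 2 hearts did not stand apart. Mgp, the matrix Gla protein that restrains calcification, had 21490, 17260, 16350 and 17110 in WKY-air and 10960, 9639, 12440 and 10440 in WKY-DE (limma log2 fold change −0.73 ± 0.15 SE and adjusted p = 0.0308). Both had an adjusted p of 0.0505 after quantile normalization. Postn, the fibroblast matricellular protein periostin, had 528, 243, 432 and 372 in WKY-air and 208, 58.9, 223 and 50.2 in WKY-DE and missed the call (limma log2 fold change −1.63 ± 0.41 SE and adjusted p = 0.0566). Thbs4, thrombospondin 4, had 1195, 346, 765 and 856 in WKY-air and 167, 118, 430 and 69.95 in WKY-DE, the largest difference of the list, and missed it too (limma log2 fold change −2.08 ± 0.53 SE and adjusted p = 0.0577). In both the WKY-DE hearts varied more than 4-fold among themselves, and replicate 3 was the highest of them.

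Among enzymes of collagen processing P3h3, a prolyl 3-hydroxylase, had 333, 183, 260.1 and 278 in WKY-air and 122, 128, 159 and 154 in WKY-DE (limma log2 fold change −0.81 ± 0.16 SE and adjusted p = 0.0301) and was called under both scalings. Crtap, a subunit of the prolyl 3-hydroxylase complex of the endoplasmic reticulum, went the other way from a faint level, 20.5, 20.5, 34.3 and 10 in WKY-air and 52.1, 82.3, 92.3 and 77.2 in WKY-DE (limma log2 fold change 1.32 ± 0.27 SE and adjusted p = 0.0316), and was not called after quantile normalization (adjusted p = 0.0600). Loxl1, a lysyl oxidase that crosslinks elastin, had 777, 548, 589 and 695 in WKY-air and 369.9, 187, 499 and 339.7 in WKY-DE and was not called (limma log2 fold change −0.94 ± 0.24 SE and adjusted p = 0.0575). Of the 16 genes of this list 11 were nominally lower, 1 was called lower and 1 higher (all genes, 0.586% and 1.39%).

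In the TGF-β list 1 of 33 genes was called lower (all genes, 0.586%), Ccn2, the connective tissue growth factor, with 3492, 2388, 3181 and 2886 in WKY-air and 1754, 2081, 1601 and 1394 in WKY-DE (limma log2 fold change −0.80 ± 0.19 SE and adjusted p = 0.0462). After quantile normalization its adjusted p was 0.0676 and no gene of the list was called, yet 29 of 33 were nominally lower, where 49.7% of all genes were. The median was −0.14 under the deposited scaling and −0.28 after quantile normalization. The 3 ligands did not pass: Tgfb1 had a log2 fold change of −0.71 (adjusted p = 0.222), Tgfb2 of −0.56 (0.299) and Tgfb3 of −0.57 (0.0722). Fstl1, a follistatin-like secreted protein, had 1533, 1536, 1537 and 1629 in WKY-air and 985, 1039, 1174 and 849 in WKY-DE and an adjusted p of 0.0608. Smad6, an inhibitory Smad protein, was among the 8 genes of the list that were nominally higher, with 118, 138, 201 and 189.5 in WKY-air and 299.6, 390.2, 274 and 371 in WKY-DE and an adjusted p of 0.0649.

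Of 23 Wnt ligands, receptors and modulators 2 were called lower under both scalings and none higher (all genes lower, 0.586%, and 0.327% after quantile normalization). Fzd2, a Wnt receptor, had 263, 167, 165 and 253 in WKY-air and 62.1, 78.3, 59.6 and 55.4 in WKY-DE (limma log2 fold change −1.49 ± 0.21 SE and adjusted p = 0.0110). Sfrp2, a secreted Wnt-binding protein made by fibroblasts, had 492, 344, 548 and 733 in WKY-air and 186, 199.8, 213 and 137 in WKY-DE (limma log2 fold change −1.42 ± 0.31 SE and adjusted p = 0.0370). DE hearts were below all air hearts for both genes. The median of the list was −0.0065, and −0.14 after quantile normalization, and 11 of 23 members were nominally higher under the deposited scaling.

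Atrial and fibroblast markers also read lower in WKY-DE. Under the deposited scaling the 14 fibroblast genes summed to 33006–39997 in WKY-air and 24128–31837 in WKY-DE, without overlap. The separation was not particular to fibroblasts. Sums were also lower without overlap for macrophage (5494.1–6381.3 and 4397.0–5290.1) and smooth muscle and pericyte markers (14068–16541 and 11876–14004). The same held for epicardium (22063–29726 and 17269–20162), a sum carried mostly by Clu, with means of 24940 and 18110. Of the 7 epicardium markers 4 were nominally higher, with medians of 0.23 and 0.056 under the 2 scalings. Lymphocyte sums were higher without overlap, and those of the remaining types, atrial included, overlapped. Without WKY-air replicate 1 and WKY-DE replicate 3, whose atrial sums of 98435 and 44166 were the highest of their groups, 13 of 14 fibroblast markers were nominally lower with a median of −0.64, and the medians were −0.20 for collagens, −0.24 for matrix glycoproteins and proteoglycans and −0.17 for the TGF-β list. None of these genes was called in that fit. After quantile normalization of the same arrays the fit called 10 of all 10411 genes, all lower. The fibroblast, collagen, matrix, Wnt and mitochondrial ribosome lists each held 1 of them, and a gene can stand in more than 1 list. Among the arrays kept, every WKY-DE heart still had a lower atrial sum than every WKY-air heart. Leaving out the 2 hearts therefore cannot separate a change in these genes from atrial content. The part of atrial tissue in the other arrays was not tested.

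**Figure D4:**
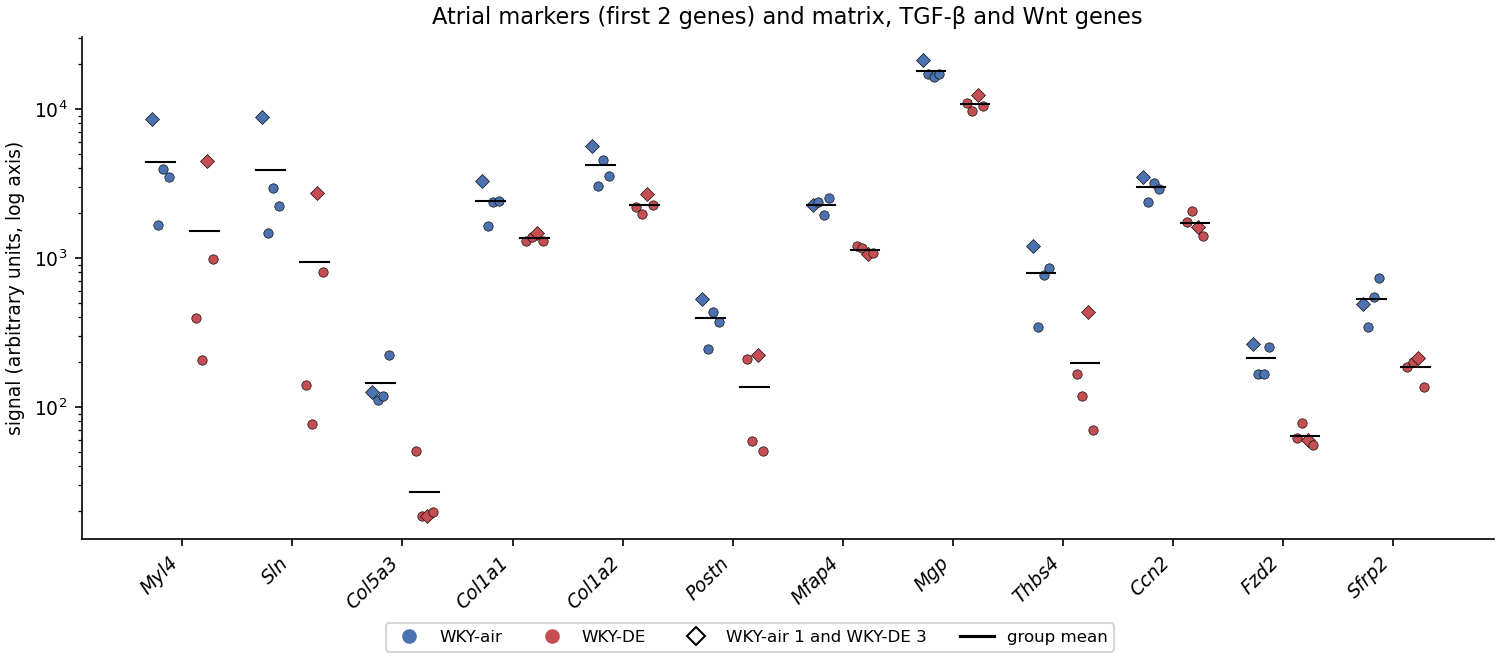
Signal per heart (y axis, arbitrary units, log scale) of the atrial markers Myl4 and Sln and of collagen, matrix, TGF-β and Wnt genes (x axis) in WKY-air and WKY-DE. Points are single arrays, lines are group means of 4, and diamonds mark WKY-air 1 and WKY-DE 3. The diamonds top their groups for both atrial markers and for Col1a1, Col1a2, Postn, Mgp and Thbs4, and not for Mfap4. For Sln they read 8873 and 2748.

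Energy metabolism and the contractile apparatus depended on the scaling. Of 66 subunits of the respiratory chain 58 were nominally lower under the deposited scaling (median −0.25), and 41 after quantile normalization (median −0.043). The only call was Ndufs6 of complex I (all genes lower, 0.586%), with 15250, 13580, 14590 and 14750 in WKY-air and 10270, 10610, 11360 and 10940 in WKY-DE (limma log2 fold change −0.43 ± 0.10 SE and adjusted p = 0.0462), and after quantile normalization its log2 fold change was −0.22 (adjusted p = 0.248). The 40 cytosolic ribosomal proteins behaved alike, with medians of −0.30 and −0.087. Under the deposited scaling 4 were called lower (Rpl18, Rpsa, Rpl23 and Rps16, where 0.586% of all genes were lower), and none after quantile normalization. Rpsa had further probe sets at 0.099 (limma adjusted p = 0.79) and −0.23 (0.29), not called. Of the 4 called Rpl18 had the largest fall, at 10820, 10010, 7218 and 10100 in WKY-air and 6031, 6025, 5759 and 7042 in WKY-DE (limma log2 fold change −0.60 ± 0.13 SE and adjusted p = 0.0353). These transcripts lie among the brightest on the array, where the median of all probe sets was −0.10 before quantile normalization.

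The same holds for the sarcomere, where Acta1, skeletal α-actin, was the 1 gene of 34 called lower (all genes, 0.586%), and none was called higher. It had 23820, 19240, 21930 and 16340 in WKY-air and 13760, 13840, 14050 and 12840 in WKY-DE (limma log2 fold change −0.56 ± 0.14 SE and adjusted p = 0.0498) and an adjusted p of 0.157 after quantile normalization. Atp2a2, the calcium pump of the sarcoplasmic reticulum, changed sign with the scaling, from −0.39 (adjusted p = 0.136) to 0.023 (0.926), and was not called in either. Its 3 other probe sets had log2 fold changes of 0.39 (adjusted p = 0.112, mean signals of 3342 in WKY-air and 4371 in WKY-DE), 1.05 (0.101) and −0.12 (0.687), none called under either scaling, so the probe sets of Atp2a2 differed in sign. Genes of the tricarboxylic acid cycle and pyruvate dehydrogenase had a median near that of all genes under the deposited scaling (0.086, all genes 0.081). Of these 26 genes 18 were nominally higher (all genes, 60.4%). After quantile normalization 22 of 26 were higher (all genes, 50.3%), with a median of 0.21 (all genes, 0.0025). Pdhx, the E3-binding subunit of pyruvate dehydrogenase, was the 1 called higher (all genes, 1.39%), with 1496, 1677, 1654 and 1206 in WKY-air and 2575, 2076, 2093 and 1976 in WKY-DE (limma log2 fold change 0.53 ± 0.13 SE and adjusted p = 0.0469) and 0.0504 as adjusted p after quantile normalization.

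Of 45 genes of fatty acid uptake and oxidation 2 were called higher and none lower (all genes, 1.39% and 0.586%), and none after quantile normalization. Gpihbp1, the endothelial anchor of lipoprotein lipase, had 420.5, 556, 231 and 563 in WKY-air and 681, 768, 922 and 1085 in WKY-DE (limma log2 fold change 0.995 ± 0.24 SE and adjusted p = 0.0469). Slc27a2, a very long-chain acyl-CoA synthetase, had 79.7, 57.7, 129.8 and 156 in WKY-air and 288, 294, 173 and 218 in WKY-DE (limma log2 fold change 1.14 ± 0.26 SE and adjusted p = 0.0406). The lowest air heart of Gpihbp1, replicate 3, was at less than 50% of the air hearts 2 and 4.

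Protein quality control and mitochondrial translation held 2 calls each, all lower: Stip1 and Hspb2 among 30 heat shock proteins and chaperones, and Mrps12 and Mrpl27 among 47 genes of mitochondrial ribosome and import (all genes lower, 0.586%). Mrps12, a protein of the small mitochondrial ribosomal subunit, had 1420, 1351, 1251 and 1366 in WKY-air and 750.3, 831, 648 and 698 in WKY-DE (limma log2 fold change −0.87 ± 0.11 SE and adjusted p = 0.00873), and the fall was −0.89 with an adjusted p of 0.00437 after quantile normalization. It was 1 of 3 probe sets with an adjusted p below 0.01, beside Col5a3 and Fam84b. Mrpl27 of the large subunit was called under the deposited scaling alone (log2 fold change −0.48, adjusted p = 0.0481, and 0.0920 after quantile normalization). These 47 genes had a median of −0.061 under both scalings. Stip1, the cochaperone that links Hsp70 to Hsp90, had 1932, 1625, 1670 and 1804 in WKY-air and 1251, 899, 1100 and 1250 in WKY-DE (limma log2 fold change −0.65 ± 0.14 SE and adjusted p = 0.0353) and was called under both scalings (adjusted p = 0.0498 after quantile normalization). Hspb2, a small heat shock protein of muscle, was called under the deposited scaling, with 1395, 1136, 841 and 1349 in WKY-air and 686, 778, 570.3 and 513 in WKY-DE (limma log2 fold change −0.87 ± 0.19 SE and adjusted p = 0.0398), and not after quantile normalization (adjusted p = 0.0505).

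Of 42 lysosomal genes 2 were called lower (all genes, 0.586%). Ppt1, the palmitoyl-protein thioesterase, had 822, 818, 992 and 1037 in WKY-air and 545, 617, 538 and 348 in WKY-DE (limma log2 fold change −0.84 ± 0.16 SE and adjusted p = 0.0288) and was called under both scalings. Ctsb, the protease cathepsin B, had 5610, 4813, 4959 and 5279 in WKY-air and 3766, 4080, 3296 and 3638 in WKY-DE (limma log2 fold change −0.48 ± 0.10 SE and adjusted p = 0.0353) and an adjusted p of 0.0774 after quantile normalization. The list had medians of −0.13 and −0.12 under the 2 scalings.

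Genes through which cells respond to components of DE were mostly not called. Cyp1a1, the cytochrome P450 induced through the aryl hydrocarbon receptor, had 128, 158, 189.6 and 139 in WKY-air and 152, 163, 179 and 104 in WKY-DE (limma log2 fold change −0.045 ± 0.29 SE and adjusted p = 0.952), with the groups overlapping. In SH rats Cyp1a1 had 13.6, 17.99, 32.3 and 25.7 in SH-air and 68.8, 159, 271 and 118 in SH-DE, without overlap (limma log2 fold change 2.03 ± 0.29 SE and adjusted p = 0.0897), and the interaction had an adjusted p of 0.142. Aldh3a1, an aldehyde dehydrogenase of the same battery, had 151, 95.8, 125 and 148 in WKY-air and 15.9, 39.8, 63.6 and 38.7 in WKY-DE, lower in all DE hearts and not called (limma log2 fold change −1.45 ± 0.40 SE and adjusted p = 0.0717). Ahr was the only 1 of 11 genes of this list that was called, where 1.98% of all genes were in either direction. Hmox1, the stress-induced heme oxygenase, was at 179, 113, 132 and 157 in WKY-air and 82.5, 104, 109.6 and 189 in WKY-DE with overlap (adjusted p = 0.512).

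Of 47 antioxidant genes 1 was called, in the lower direction (all genes, 0.586%). Txnip, the inhibitor of thioredoxin that also restrains glucose uptake, fell from 7343, 10050, 9355 and 10230 in WKY-air to 5214, 6637, 4630 and 5175 in WKY-DE (limma log2 fold change −0.77 ± 0.16 SE and adjusted p = 0.0333), and its adjusted p was 0.0811 after quantile normalization. Sod2, the mitochondrial superoxide dismutase, had 2959, 3185, 3541 and 2716 in WKY-air and 4207, 4234, 4146 and 3816 in WKY-DE, higher in all DE hearts and not called (limma log2 fold change 0.41 ± 0.11 SE and adjusted p = 0.0707). The median of the list was −0.12, and −0.068 after quantile normalization.

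No gene of 40 concerned with vascular tone was called by limma, where 1.98% of all genes were in either direction. Of the 40, 7 had an unadjusted p below 0.05, beside 2609 of 12783 probe sets with 1 gene. Edn1, which encodes the vasoconstrictor endothelin-1, had 99.9, 111, 96.6 and 121 in WKY-air and 238, 154, 139 and 259.9 in WKY-DE, with every DE heart above every air heart (adjusted p = 0.0594, and 0.149 after quantile normalization). Nos3, the endothelial nitric oxide synthase, had 362, 334, 386 and 425 in WKY-air and 316, 246, 283 and 228 in WKY-DE, with no overlap in the other direction (adjusted p = 0.101 and 0.0570). Ptgis, the prostacyclin synthase, had 622, 776, 548 and 1032 in WKY-air and 337, 318, 336 and 457 in WKY-DE (adjusted p = 0.0613 and 0.0570). Ephx2, the soluble epoxide hydrolase, overlapped between the groups (log2 fold change 0.18, adjusted p = 0.623). Cyp4b1, a cytochrome P450 of fatty acid and xenobiotic oxidation, was the 1 call among 31 P450 and epoxide genes (all genes in either direction, 1.98%), at 548, 631, 578 and 631 in WKY-air and 942, 866, 868 and 1108 in WKY-DE (limma log2 fold change 0.65 ± 0.10 SE and adjusted p = 0.0177), and its log2 fold change was 0.64 with an adjusted p of 0.0177 after quantile normalization.

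Immune genes held calls of both signs. Of 60 cytokines, chemokines and receptors 2 were called higher and 1 lower (all genes, 1.39% and 0.586%), namely Il12b, Ccl20 and Il4r. Ccl20, a chemokine for dendritic cells and lymphocytes, had 41.7, 10.3, 7.76 and 14.6 in WKY-air and 73.2, 94.8, 68.98 and 55.98 in WKY-DE (limma log2 fold change 1.44 ± 0.30 SE and adjusted p = 0.0346), and its adjusted p was 0.0548 after quantile normalization. Cd3g, a chain of the T cell receptor complex, had 34.8, 33.6, 63.4 and 35.8 in WKY-air and 84.9, 149, 112 and 169 in WKY-DE (limma log2 fold change 1.31 ± 0.28 SE and adjusted p = 0.0346), and Cpa3, the carboxypeptidase of mast cells, had 58.6, 63.7, 74.4 and 94.3 in WKY-air and 197, 148, 143 and 204 in WKY-DE (limma log2 fold change 1.09 ± 0.26 SE and adjusted p = 0.0481). Neither was called after quantile normalization, with adjusted p-values of 0.0528 for Cd3g and 0.0811 for Cpa3. The 13 lymphocyte markers summed to 834.4–933.0 in WKY-air and 1048.8–1335.1 in WKY-DE, and 12 of them were nominally higher, with medians of 0.46 and 0.23 under the 2 scalings. These transcripts were dim, with a median signal of 51.97, in the range where the median of all probe sets was 0.16. No marker of macrophages, endothelium, smooth muscle, erythroid cells, adipocytes or epicardium was called by limma, where 1.98% of all genes were in either direction. Of the 55 measured 22 had an unadjusted p below 0.05, beside 2609 of 12783 probe sets with 1 gene. The kinase Eif2ak2, induced by interferon, and Ciita, the activator of class II genes, were called higher under the deposited scaling (log2 fold changes 0.77 and 0.74) and not after quantile normalization.

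Membrane transport and excitability added calls beyond those given above. Kcnd2, a channel subunit of the transient outward potassium current, had 165, 194, 148 and 169 in WKY-air and 201, 341, 336 and 367 in WKY-DE (limma log2 fold change 0.79 ± 0.18 SE and adjusted p = 0.0395) and an adjusted p of 0.0811 after quantile normalization. With Slc9a5 it made 2 of 36 channel and pump genes called higher, and 3 of 55 solute carriers were called higher (Slc9a5, Slc10a1 and Slc22a8), none lower in either list (all genes higher, 1.39%). After quantile normalization 1 channel gene and 2 solute carriers were called higher (all genes, 0.298%). Camk4 was the 1 call among 39 genes of calcium handling (all genes in either direction, 1.98%), and its second probe set had a log2 fold change of 0.23 (adjusted p = 0.819).

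Single calls in other lists were of both signs. Rbm3, a cold-induced RNA-binding protein, had 373, 449.5, 503 and 437 in WKY-air and 784, 701, 1089 and 710 in WKY-DE (limma log2 fold change 0.86 ± 0.21 SE and adjusted p = 0.0481), with an adjusted p of 0.0623 after quantile normalization. Sox10, a transcription factor of Schwann cells, had 139.5, 50.03, 112 and 93.9 in WKY-air and 28.4, 27.3, 20.6 and 34.6 in WKY-DE (limma log2 fold change −1.33 ± 0.29 SE and adjusted p = 0.0361) and was called under both scalings, while none of the other 6 Schwann cell markers measured was called. Prox1, a homeobox factor of cardiomyocytes and lymphatic endothelium, was called higher (log2 fold change 0.48), as were Fgfr2 (0.63) and F2, the gene of prothrombin (1.28), and Serpinf1, an antiangiogenic serpin, was called lower (−0.78). None of these 4 was called after quantile normalization. The other probe sets of Fgfr2 had log2 fold changes from 0.016 to 0.37, none called.

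The effect of DE on the same probe sets in SH rats was taken from SH arrays that share no sample with the WKY comparison. No probe set was called between SH-DE and SH-air by limma (0%) under either scaling, and 796 had an unadjusted p below 0.05 under the deposited scaling (782 after quantile normalization), against 2609 (2254) in WKY. Of the 167 called higher in WKY, 104 (62.3%) were nominally higher in SH, where 49.8% of all probe sets were, with a median log2 fold change of 0.082 in SH. Of the 72 called lower, 35 (48.6%) were nominally lower in SH, against 50.2% of all, with a median of 0.0080. Over all probe sets the 2 effects had a Pearson correlation of 0.028, given as a description since probe sets share arrays. The standard deviation of the log2 fold changes was 0.42 in WKY and 0.30 in SH. Of the 239 calls 17 had an SH effect of the same sign and more than 50% of the size in WKY. Among calls after quantile normalization, 25 of the 36 higher (69.4%) had the same sign in SH, against 49.35% of all. Of the 43 lower calls 24 did (55.8%), against 50.65% of all. The SH medians were 0.10 for these higher and −0.067 for these lower calls.

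The difference between the strains' effects passed for 1 probe set (0.00782%), and 1598 had an unadjusted p below 0.05. That gene, Fam84b, is named here because it was the only call, after its values had been seen. Fam84b had 57.3, 44.8, 46.9 and 46.5 in WKY-air and 7.03, 6.96, 6.72 and 13.97 in WKY-DE (limma log2 fold change −1.40 ± 0.17 SE and adjusted p = 0.00472), and 12.7, 5.05, 13.8 and 10 in SH-air and 21.2, 29.4, 21.9 and 10.2 in SH-DE. The groups of WKY did not overlap. All hearts of WKY-DE and SH-air lay below the offset of 16.1, so the size of the log2 differences is set by the offset. The interaction was −1.86 on the log2 scale (± 0.24 SE, limma adjusted p = 0.0200), and no probe set passed the interaction with an offset of 1 or with a replicate block. After quantile normalization 6 probe sets passed (0.0469%), of Arhgef40, Col5a3, Fam84b, Marveld1, Mrps12 and Tes, all with a lower effect in WKY than in SH. For the other calls in WKY a difference between the strains was not shown.

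**Figure D5:**
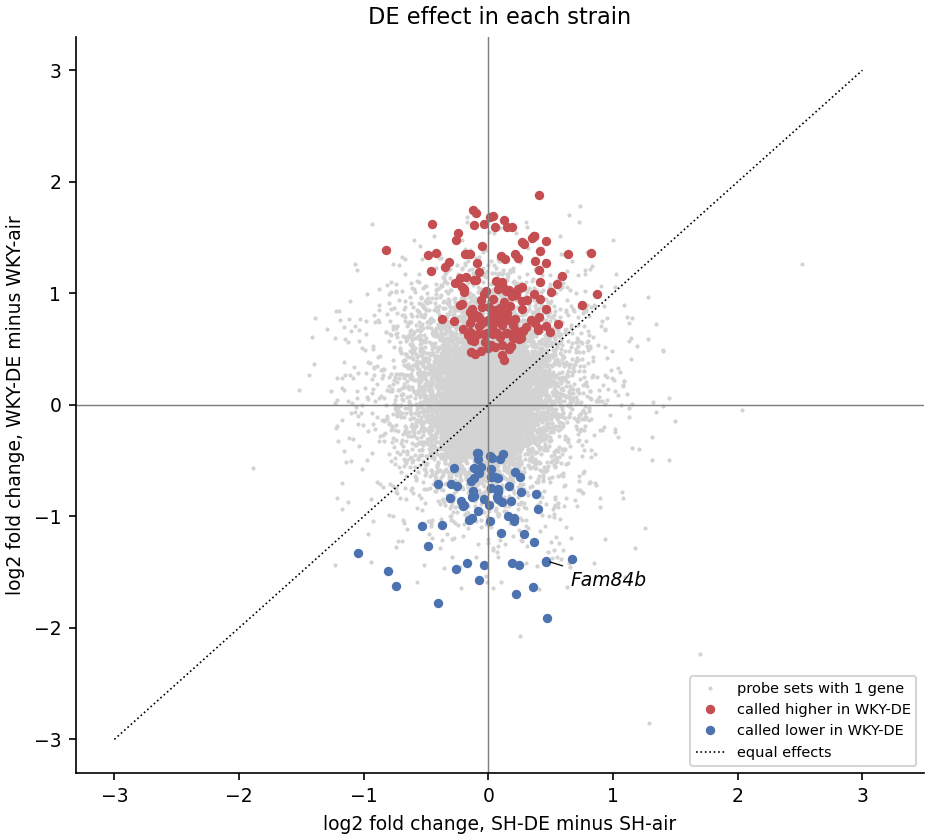
Log2 fold change of DE against air in WKY (y axis) and SH (x axis) for 12783 probe sets with 1 gene, under the deposited scaling. Colored points are the 167 called higher and the 72 called lower in WKY-DE, and the dotted line marks equal effects. The colored points lie along the vertical axis with SH effects around 0, and their medians in SH were 0.082 and 0.0080.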

How the data were processed

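Left ventricle RNA of 16 rats was hybridized to 1 array per heart. The deposited table holds MAS5 signal intensities, made by the authors with the default settings of that software, which scales each array to a common trimmed mean, on a linear scale. The published work took its own lists from RMA values, which were not used here.

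Values were analyzed as log2(signal + 16.1), the offset being the 10th percentile of all signals, which exceeded at most 12.5% of the probe sets of any array. limma 3.58.1 (R 4.3.3) fitted 4 group means to the 16 arrays (12 residual degrees of freedom), and p-values were Benjamini-Hochberg adjusted over 15866 probe sets without controls. Counts cover the 12783 probe sets assigned to 1 gene by the platform annotation (10411 genes), with symbols updated through Entrez identifiers, and 312 with several genes and 2771 without one were fitted but not named. Where a list counts genes, the probe set of highest mean stood for the gene. Every fit was repeated after quantile normalization. The median standard error of a WKY log2 fold change was 0.21, and the number of arrays limits the precision. Replicates are separate rats, with no scan date or batch in the sources used here. The fit was tested on simulated data.

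Named genes were (a) the 10 largest changes in each direction among calls without overlap, (b) the 10 largest in each direction among calls under both scalings above the median signal, (c) up to 4 members of lowest p per list and (d) genes known from work on this exposure. The members and lists were chosen with earlier results of these data known. Alternatives included other offsets, centring, filters, weights, a replicate block, and leaving out arrays.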

Additional observations from a re-analysis of the deposited data

Results flagged for a closer look

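Single hearts stood apart from their group in 12 of 198 groups tested (99 named genes in 2 groups of 4), by the ratio of the gap beside the extreme heart to the range of the group, and chance alone gives about 1 in 20. In WKY-air the ratio was 0.925 for Cd3g (replicate 3, signal 63.4), 0.877 for Col5a3 (replicate 4, 222), 0.831 for Fam84b (replicate 1, 57.3) and 0.958 for Fstl1 (replicate 4, 1629). In WKY-DE it was 0.962 for Col5a3 (replicate 1, 50.7), 0.957 for Fam84b (replicate 4, 14.0) and 0.913 for Eif2ak2 (replicate 1, 300.4). Replicate 3 of WKY-DE was the outlying heart for Cytl1 (0.868, signal 484), Fgfr2 (0.938, signal 161.0), Slc10a1 (0.879, signal 98.5) and Slc4a7 (0.896, signal 789), and replicate 4 for Ptgis (0.862, signal 457). None of these hearts crossed into the other exposure group.

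The effect of DE on Fam84b differed between the strains, with an interaction of −1.86 on the log2 scale (limma adjusted p = 0.0200), the effect being −1.40 in WKY and 0.46 in SH. All hearts of WKY-DE and SH-air lay below the offset of 16.1, so the size of these differences is set by the offset, and no probe set passed the interaction with an offset of 1 or with a replicate block.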

How the results depend on the processing

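The number of probe sets called between WKY-DE and WKY-air, 239 with all arrays and the deposited scaling, depended strongly on the processing. It was 79 after quantile normalization, which also brought the median change over all probe sets (log2) from 0.098 to 0.0057. It was 441 with the offset at the 25th percentile, 534 without the dimmest 40%, 542 with an intensity trend and robust moderation, 427 with array weights, 29 with WKY arrays alone, 13 with these quantile normalized, and 3 at an adjusted p below 0.01. Centring on array medians gave 345, with 73 higher and 272 lower against 167 and 72. Leaving out 1 array gave 35 to 240, and after quantile normalization 11 to 79, the lowest counts being those without WKY-DE replicate 2 and without WKY-air replicate 1, respectively. With both WKY-air replicate 1 and WKY-DE replicate 3 left out, an alternative chosen after seeing the data, it was 0, and 10 after quantile normalization.

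The strain by exposure interaction, with 1 call, gave 6 after quantile normalization, 2 with median centring, without the dimmest 40%, or with an intensity trend, 4 with the 25th percentile offset, 5 over genes, 0 to 6 with 1 array left out, and 0 with an offset of 1, at an adjusted p below 0.01, or without the pair of hearts named above.

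Replicate numbers are shared between groups, but residuals of WKY-air and WKY-DE hearts of the same number correlated at −0.023, −0.013, 0.039 and 0.053, so the numbers were not taken to pair hearts. A replicate block gave 88 calls between WKY-DE and WKY-air, 60 higher and 28 lower, and 0 for the interaction.

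Atp2a2, which was not called, was 0.023 and 0.022 after quantile normalization, with all arrays and with WKY arrays alone. Cyp1a1 ran from −0.13 to 0.10 with 1 array left out. Among 99 named genes no other sign changed under any alternative, and 58 kept their call or lack of one after quantile normalization while 40 lost a call. The 50 list medians moved beyond the spread between arrays for 25 lists after quantile normalization. The causes were not tested.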
